A study of Mus musculus with 10 samples.

Results

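Transcripts of the melanocyte lineage were followed in RNA from T cells sorted out of melanomas. The 10 genes, of 34932 in the files, were chosen by name for their place in pigment cells, with earlier results of these data known: Tyrp1, Dct, Tyr, Pmel, Mlana, Slc45a2, Gpr143, Mitf, Ppargc1a and Trpm1. Their estimated counts were summed per gene in all 10 libraries. The libraries came from Pmel CD8+ T cells of Thy1.2/Thy1.2 donors, whose transgenic receptor recognizes gp100, the melanosome protein that the Pmel gene encodes. These cells were activated with gp100 peptide and IL-2 and then carried the MSCV-IRES-Thy1.1 (MIT) retrovirus, either with the mouse Batf open reading frame (MIT-BATF, 5 libraries) or without an insert (MIT-Empty, 5 libraries). Recipients in both groups were adult male or female Ly5.1 (CD45.1) mice with subcutaneous tumors of the mouse melanoma line B16-F10. Each received Thy1.1+ cells by retroorbital injection, and on day 7 after transfer 2000 live Thy1.1+ Pmel cells per mouse were sorted from the digested tumor for modified SMART-Seq2 and paired 37-base sequencing. The sort gate is a viral reporter, so it selects transduced T cells and not cells of the tumor.

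Melanocytes and melanoma cells make melanin in melanosomes, organelles related to lysosomes. Tyrosinase, tyrosinase-related protein 1 and dopachrome tautomerase carry out the pigment reactions there, on fibrils built from the Pmel protein. The transcription factor MITF drives many of these genes by binding E-box type motifs, among them the M-box TCATGTG. T cells do not make melanosomes, although some transport proteins of the melanosome, such as Rab27a, also serve their lytic granules.

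Library totals ranged between 10702908 and 34102346 estimated counts in the libraries labelled MIT-BATF, and between 6534648 and 21355922 in those labelled MIT-Empty. Of 45 pairs of libraries, 4 were nested, the smaller library having no more counts than the larger for nearly every gene. MIT-BATF 4 lay within MIT-BATF 2, MIT-BATF 5 within MIT-BATF 3, MIT-Empty 4 within MIT-Empty 2 and MIT-Empty 5 within MIT-Empty 3, with the smaller library above the larger in at most 0.661% of genes. The next closest pair stood at 3.54%. Results are therefore given as deposited and with the shared reads counted once, that is, with the contained library taken off the one that holds it. That reads are shared is inferred from these counts, as no reads were examined. Batf itself, the gene in the vector, was at 12.4 to 26.5 CPM (counts scaled to a common library size) in the libraries labelled MIT-BATF and 13.5 to 50.8 CPM in those labelled MIT-Empty, with a log2 fold change of -0.41 (adjusted p = 0.522, edgeR). Batf was thus not higher in the libraries labelled MIT-BATF, which goes against that label. The insert was a synthesized open reading frame, and whether its reads map to the annotated Batf transcripts was not tested, so groups are named here by label. The 10 CD8 T cell markers summed to between 4609 and 6496 CPM in MIT-BATF, against between 4737 and 6774 CPM in MIT-Empty. None of the 10 passed by edgeR or by DESeq2, and 0 had an unadjusted p under 0.05 by edgeR and 1 by DESeq2. Mitochondrial genes took 33.2% of counts in MIT-BATF 1, and 11.5% to 15.1% in the other MIT-BATF libraries and 15.5% to 23.1% in MIT-Empty.

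Promoter windows from RefSeq (GRCm38.p6) were found for 6 of the 10 genes, with 9 start sites in all. Within 250 bases before the start, the letters TCATGTG on either strand (CACATGA on the other) occurred in 5 of these 9 windows and in 5 of the 6 genes, against 3.25% of 32851 promoter windows of the same length. The 6 matches fall in Tyrp1, Tyr, Dct, Ppargc1a and Trpm1, and Pmel, Mlana, Slc45a2 and Gpr143 had no window. Each match lies in a stretch of 30 bases. Each stretch runs 5′ to 3′ along the gene, with the motif in capitals. They lie at chr4:80834154-80834183 (Tyrp1, plus strand), chr7:87493517-87493546 (Tyr, minus), chr14:118052380-118052409 and chr14:118052461-118052490 (Dct, minus), chr5:51567868-51567897 (Ppargc1a, minus) and chr7:64153681-64153710 (Trpm1, plus).
Tyrp1: gtggggagggagTCATGTGctgcctagtag
Tyr: agaaaaagttagTCATGTGctttgcagaag
Dct, near match: gtgcacttagggTCATGTGctaacaaagag
Dct, far match: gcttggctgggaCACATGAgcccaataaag
Ppargc1a: gctgttggaaagCACATGAtactgtacata
Trpm1: cccaaatcctcaTCATGTGcccaccccaaa
In Tyrp1 the motif began 47 bases before the start, in Tyr 22 bases, and in Dct 151 and 232 bases. The canonical E-box CACGTG was in 1 of the 9 windows, at the second Trpm1 start, against 6.02% of all windows. Mitf held neither motif at its 3 starts. The third, at base 97991783 of chromosome 6, opens the first exon that melanocytes use. Its window, at chr6:97991583-97991682 on the plus strand, held the cAMP response element letters TGACGTCA (1.55% of all windows), the site through which hormone signals act on Mitf in melanocytes.
Mitf: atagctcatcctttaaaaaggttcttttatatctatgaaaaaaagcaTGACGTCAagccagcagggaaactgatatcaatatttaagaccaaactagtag
A match of letters describes the sequence and is not a measured binding site. The genes were chosen by name for the lineage whose factor binds TCATGTG, so its share against all windows is not support.

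Summed over the 10 genes, the libraries labelled MIT-BATF held 17.8, 18.7, 26.8, 16.9 and 31.3 CPM for replicates 1 to 5. Those labelled MIT-Empty held 125.9, 589, 56.7, 1768 and 45.6 CPM. Every MIT-BATF library was below every MIT-Empty library, while MIT-Empty libraries differed among themselves far more than the MIT-BATF ones did. Counting shared reads once, the sums were 19.1, 21.6, 25.1, 18.2 and 33.7 CPM in MIT-BATF, against 135.4, 54.5, 72.2, 1910 and 49.0 CPM in MIT-Empty. The groups remained apart, and MIT-Empty 2 moved down among the other MIT-Empty libraries. MIT-Empty 4 held 94.2% of the melanocyte counts of MIT-Empty 2, but 31.8% of all its counts. For the other 3 nested pairs these shares were 37.6% and 50.5% (MIT-BATF 2), 50.2% and 61.5% (MIT-BATF 3), and 39.6% and 57.3% (MIT-Empty 3). The high level of MIT-Empty 2 as deposited was thus that of MIT-Empty 4, and 1 library stood far above the other 9.

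**Figure D1:**
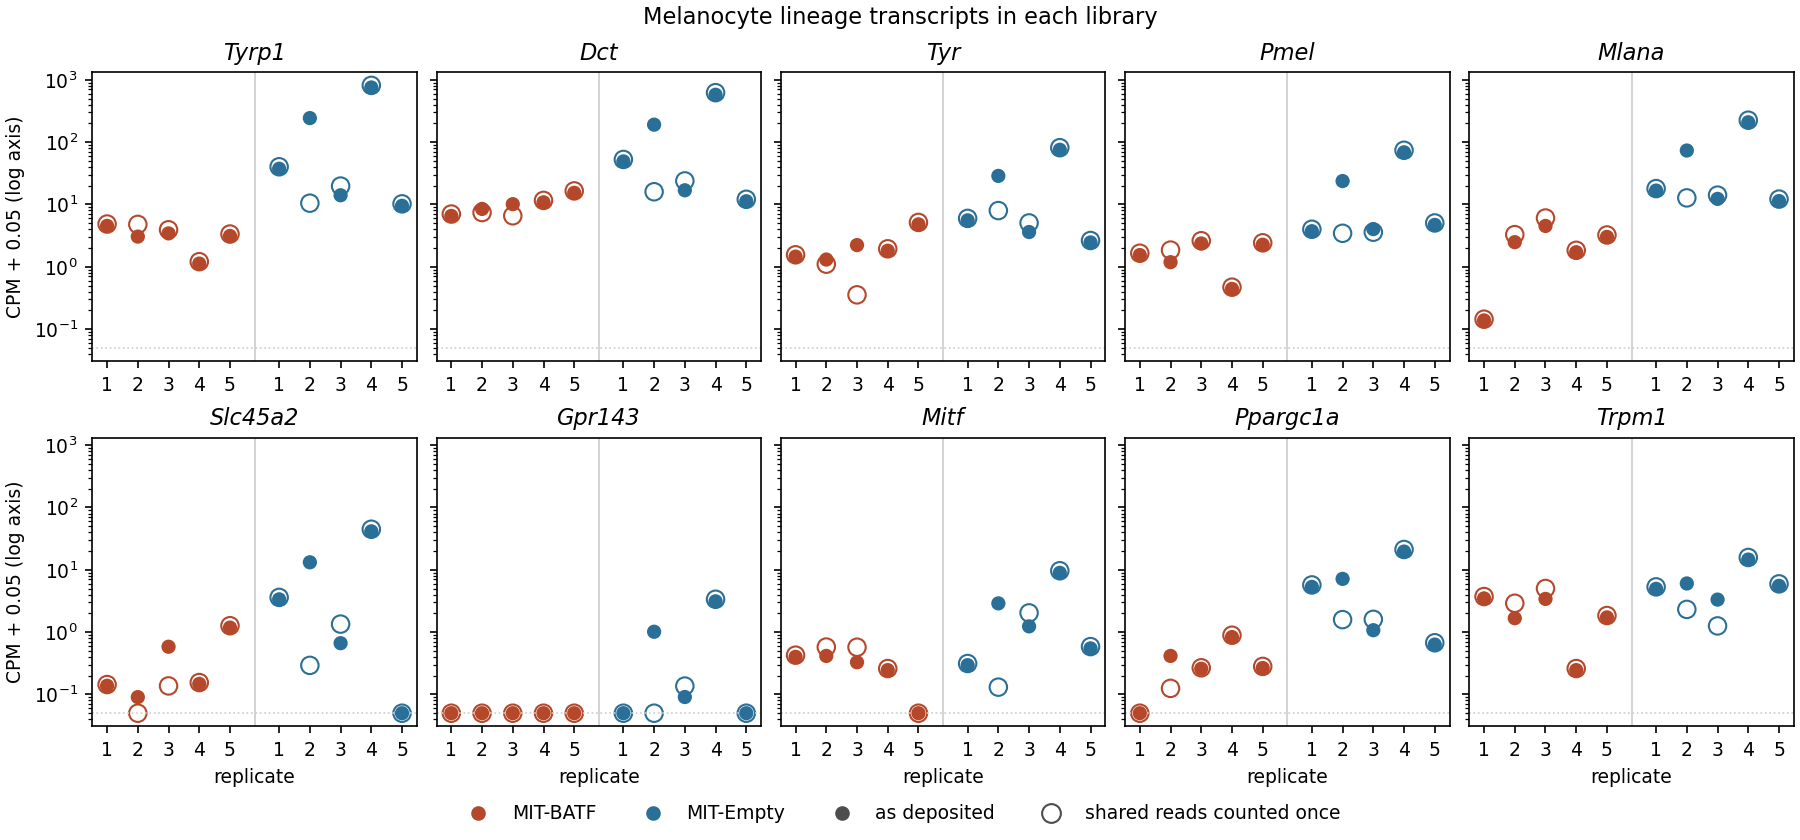
Level of each of the 10 genes per library, in CPM + 0.05 on a log axis, with the 5 MIT-BATF libraries on the left of each panel and the 5 MIT-Empty libraries on the right. Filled points are the counts as deposited and rings count shared reads once. Points on the dotted line are at 0. Tyrp1, Pmel and Mlana do not overlap between groups, and MIT-Empty 4 is the highest library in every panel.

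By the quasi-likelihood test of edgeR, with p-values adjusted by the method of Benjamini and Hochberg, 7 of the 8 genes that passed the filter on low counts were lower in the libraries labelled MIT-BATF, against 2.43% of 11781 genes tested. Mitf and Gpr143 did not pass the filter. Counting shared reads once, 2 of the 6 genes tested were lower, Tyrp1 and Mlana, against 0.683% of 11131 genes. Slc45a2 and Ppargc1a then fell under the filter as well. A gene that is low in MIT-BATF passes the filter through the MIT-Empty libraries, so these shares of the genes that passed are not support in themselves. The median log2 fold change was -4.23 over the 8 genes and 0.01 over all genes tested, and -3.62 over the 6 genes with shared reads counted once. In bulk RNA, fewer cells of a kind and less RNA per cell cannot be told apart.

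Tyrp1 (chromosome 4, 80834123 to 80851719, GRCm38), which oxidizes a melanin intermediate, had the lowest log2 fold change of the 8 genes tested. It was at 4.48, 3.00, 3.38, 1.08 and 3.07 CPM in MIT-BATF, against 37.3, 243, 14.0, 753 and 9.46 CPM in MIT-Empty. The groups did not overlap, and with shared reads counted once MIT-Empty 2 was at 10.4 CPM, still above the highest MIT-BATF library at 4.8 CPM. The log2 fold change was -6.11 ± 1.09 (SE, adjusted p = 0.00497, edgeR), and -5.62 with shared reads counted once (adjusted p = 0.0288). Without MIT-Empty 2 and 4 it was -2.72 ± 0.44 (adjusted p = 0.00900), which is 6.60-fold in place of 69.1-fold.

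Dct (chromosome 14, 118012790 to 118052244, minus strand) encodes dopachrome tautomerase, which converts dopachrome on the way to eumelanin. Its counts gave 6.50, 8.43, 10.1, 10.8 and 15.3 CPM in MIT-BATF, against 49.0, 190.6, 16.8, 575 and 11.2 CPM in MIT-Empty. MIT-Empty 5 lay within the MIT-BATF range. Its log2 fold change was -4.03 ± 0.87 (adjusted p = 0.0157, edgeR). Counting shared reads once it was -3.88, which did not pass (adjusted p = 0.0663), nor did the -1.31 found without MIT-Empty 2 and 4 (adjusted p = 0.143).

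The counts of Dct had 2 parts that behaved differently. The annotated transcript Dct-204 is a single exon of 3459 bases (118024077 to 118027535) with an intron retained. It held 72.2, 138, 205, 95.1 and 184 counts in MIT-BATF, against 85.9, 136, 83.8, 50.5 and 41.2 counts in MIT-Empty. The other 3 Dct transcripts together held 2, 70, 229, 15 and 100 counts in MIT-BATF, against 315, 3622, 327, 3511 and 94 counts in MIT-Empty. Dct-204 averaged 7.18 ± 2.30 CPM in MIT-BATF, against 6.49 ± 3.08 CPM in MIT-Empty (SD, n = 5 each), with overlapping ranges. The other transcripts were at 0.18 to 5.39 CPM in MIT-BATF, against 7.80 to 567 CPM in MIT-Empty, which did not overlap. Across the 10 libraries, log2(CPM + 1) of Dct-204 followed that of the other 9 genes with a Pearson r of 0.13, and the remaining Dct transcripts followed it with an r of 0.98 (points share library and depth). Dct-204 took 47.2% to 97.3% of Dct counts in MIT-BATF, against 1.42% to 30.5% in MIT-Empty. With protein-coding transcripts only, a choice made after seeing the data, the Dct log2 fold change was -5.70 ± 1.17 (adjusted p = 0.0174), and -5.29 with shared reads counted once (adjusted p = 0.0823).

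**Figure D2:**
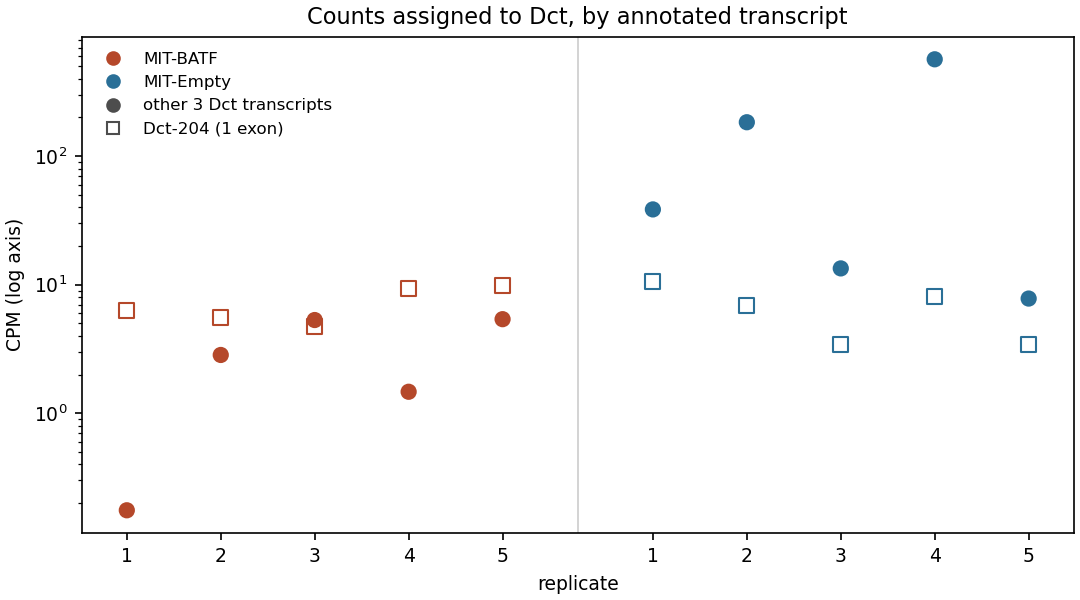
Counts assigned to Dct in each library as CPM on a log axis, MIT-BATF on the left and MIT-Empty on the right. Squares are the single-exon transcript Dct-204, which stays between 3.42 and 10.5 CPM in all 10 libraries, and circles are the other 3 Dct transcripts, which reach 567 CPM in MIT-Empty 4 and are at 0.18 CPM in MIT-BATF 1.

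Tyr (chromosome 7, 87424771 to 87493512, minus strand) encodes tyrosinase, the rate-limiting enzyme of melanin synthesis. Its level was 1.4, 1.26, 2.18, 1.76 and 4.74 CPM in MIT-BATF, against 5.51, 28.7, 3.56, 75.3 and 2.41 CPM in MIT-Empty. MIT-BATF 5 was above MIT-Empty 3 and 5, so the groups overlapped. The log2 fold change was -3.30 ± 0.82 (adjusted p = 0.0327, edgeR), and -3.35 with shared reads counted once (adjusted p = 0.105). Leaving out any one of MIT-BATF 1, 2, 3 and 4 or MIT-Empty 2 and 4 ended the call (adjusted p between 0.0570 and 0.0986). Without both MIT-Empty 2 and 4 it was -0.73 (adjusted p = 0.548).

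Pmel (chromosome 10, 128704195 to 128720238) carries the gp100 sequence that the transferred T cells recognize. It was measured at 1.49, 1.14, 2.32, 0.39 and 2.21 CPM in MIT-BATF, and at 3.67, 23.7, 3.97, 68.5 and 4.65 CPM in MIT-Empty. All MIT-BATF libraries were below all MIT-Empty libraries, also with shared reads counted once (at most 2.57 CPM in MIT-BATF, with the lowest MIT-Empty library at 3.40 CPM). Its log2 fold change was -3.69 ± 0.79 (adjusted p = 0.0150, edgeR), -3.28 with shared reads counted once (adjusted p = 0.0883) and -1.40 without MIT-Empty 2 and 4 (adjusted p = 0.183). The last bases of Pmel-201, from 128720134 on, overlap Dgka on the other strand. The protocol is not described as stranded, so reads there cannot be told apart. Dgka, a diacylglycerol kinase of T cells, was at 74.4 to 130.6 CPM in MIT-BATF, against 65.3 to 103 CPM in MIT-Empty.

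Mlana (chromosome 19, 29697824 to 29708634), the melanosome protein MART-1, is a single transcript in the annotation. It had 1, 60, 193, 17 and 55 counts in MIT-BATF, or 0.088, 2.43, 4.47, 1.66 and 2.96 CPM. The MIT-Empty libraries had 136, 1445, 299, 1288 and 136 counts, or 16.7, 73.3, 12.2, 208 and 11.3 CPM. The groups did not overlap under either count. The log2 fold change was -4.66 ± 0.85 (adjusted p = 0.00597, edgeR), -4.22 with shared reads counted once (adjusted p = 0.0341) and -2.45 without MIT-Empty 2 and 4 (adjusted p = 0.0440). Over the 8 genes tested, 3 (Tyrp1, Pmel and Mlana) had every MIT-BATF library below every MIT-Empty library, against 3.17% of all genes tested. The same 3 did so of the 6 tested with shared reads counted once, against 1.57%.

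Slc45a2, a melanosome transporter that sets the pH for pigment synthesis, lies on chromosome 15 (11000721 to 11029233). It had 1, 1, 23, 1 and 21 counts in MIT-BATF, against 27, 259, 15, 256 and 0 counts in MIT-Empty. The groups overlapped, since MIT-Empty 5 had no count, which allows up to 0.25 CPM at the depth of that library (3 counts, counting error only). Its log2 fold change was -4.76 ± 1.22 (adjusted p = 0.0376, edgeR). Leaving out any one of MIT-BATF 1, 2, 3 and 4 or MIT-Empty 2 and 4 ended the call (adjusted p between 0.0602 and 0.132), and without both MIT-Empty 2 and 4 it was -1.62 (adjusted p = 0.573).

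Gpr143, the melanosome G protein-coupled receptor altered in ocular albinism, lies on chromosome X (152781921 to 152808646). No count was assigned to it in any library labelled MIT-BATF, and MIT-Empty held 0, 19, 1, 19 and 0 counts. MIT-Empty 4 lies within MIT-Empty 2, so with shared reads counted once 2 of the 5 MIT-Empty libraries held a count. Set against 3 counts over the MIT-BATF group, the pooled MIT-Empty level of 0.55 CPM as deposited was at least 19.9-fold higher. With shared reads counted once, MIT-Empty held 20 counts or 0.41 CPM, at least 10.1-fold higher, and 1 count without MIT-Empty 4.

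Mitf, the transcription factor of the lineage, lies on chromosome 6 (97807052 to 98021349). It had 4, 9, 12, 2 and 0 counts in MIT-BATF, against 2, 56, 29, 55 and 6 counts in MIT-Empty. MIT-Empty 1 lay among the MIT-BATF libraries at 0.24 CPM, and MIT-Empty 4 was highest at 8.89 CPM. With no filter on low counts the log2 fold change was -3.35 ± 0.79 (adjusted p = 0.0127, edgeR), and -2.75 with shared reads counted once (adjusted p = 0.0794). Of its 8 annotated transcripts, 2 held a count. All reads but 2.71 counts in MIT-BATF 2 were assigned to 1 transcript, which starts upstream at base 97807058 and extends 2642 bases past the end of every other Mitf transcript. The 3 transcripts that start at the melanocyte first exon, whose promoter is printed above, held 0 counts in each of the other 9 libraries. Counts per transcript do not give the position of the reads within it.

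Ppargc1a (chromosome 5, 51454250 to 51567726, minus strand) encodes PGC-1α, a coactivator of mitochondrial genes that MITF is known to induce in melanoma. It was at 0, 0.36, 0.21, 0.78 and 0.22 CPM in MIT-BATF, and at 5.27, 7.10, 1.02, 19.6 and 0.58 CPM in MIT-Empty. MIT-BATF 4 was above MIT-Empty 5, the only overlap. The log2 fold change was -4.43 ± 0.90 (adjusted p = 0.0114, edgeR). Nearly all its counts, 113 of 121 in MIT-Empty 4, were on Ppargc1a-203, which starts at base 51553922 and not at the RefSeq start whose promoter is printed above. Without MIT-Empty 2 and 4 the log2 fold change was -2.85 (adjusted p = 0.136).

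Trpm1 (chromosome 7, 64153835 to 64269775), a cation channel of melanocytes and retinal bipolar cells, was the 1 gene of the 8 that was not called. Its level was 3.42, 1.62, 3.36, 0.20 and 1.67 CPM in MIT-BATF, against 4.90, 5.99, 3.28, 14.5 and 5.48 CPM in MIT-Empty. MIT-BATF 1 and 3 were above MIT-Empty 3. The log2 fold change of -1.68 ± 0.52 did not pass (adjusted p = 0.0890, edgeR), although it did by DESeq2 (adjusted p = 0.0136) and with no filter (adjusted p = 0.0389). It was -1.12 with shared reads counted once (adjusted p = 0.637). Its counts were spread over 15 of 23 annotated transcripts, and those with a retained intron or without a coding frame took between 32.6% and 81.2% of them in MIT-BATF, against between 75.2% and 100% in MIT-Empty. As CPM, these noncoding forms were at 1.10, 1.32, 2.55, 0.098 and 1.07 in MIT-BATF, against 4.90, 4.68, 2.76, 11 and 4.48 in MIT-Empty. They did not overlap as deposited, and with shared reads counted once they were not compared. Of their 67.5 counts in MIT-Empty 3, 53.9 were also in MIT-Empty 5, while of 110 in MIT-BATF 3, 19.8 were also in MIT-BATF 5. The other 14 forms are annotated as coding, apart from Trpm1-203, which is marked for nonsense-mediated decay and had no count. They overlapped, at 0.82 ± 0.86 CPM in MIT-BATF, against 1.28 ± 1.4 CPM in MIT-Empty (SD, n = 5 each). Across the 10 libraries, the log2(CPM + 1) of the gene followed the sum of the other 9 genes with an r of 0.80, and the other genes followed theirs with an r between 0.90 and 0.98, as a description over libraries of which 4 lie within others.

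**Figure D3:**
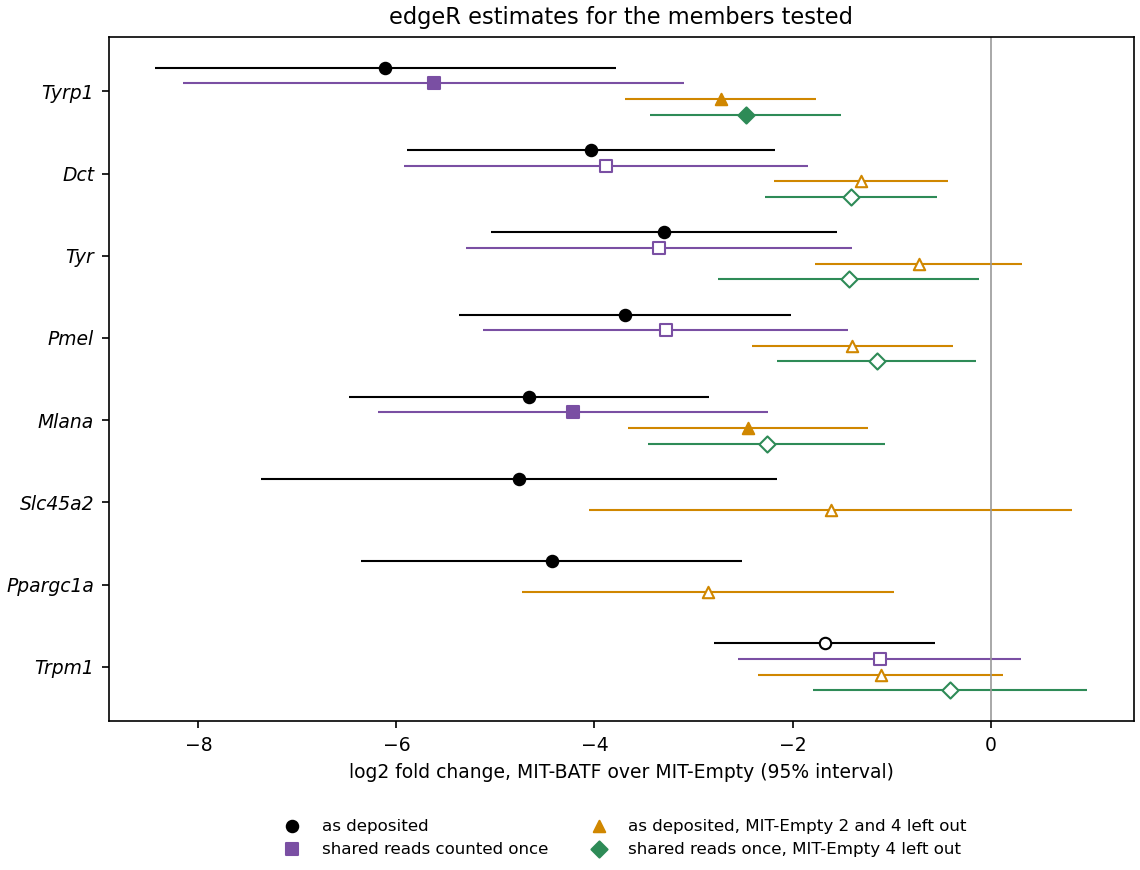
The edgeR log2 fold change (MIT-BATF over MIT-Empty) with its 95% interval for the 8 genes that passed the filter, in 4 sets of libraries. Filled symbols pass the adjusted threshold of 0.05 and open symbols do not. All estimates are below 0, and those without the highest MIT-Empty libraries lie nearer to it, at -2.72 for Tyrp1 and -0.73 for Tyr as deposited.

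With MIT-Empty 2 and 4 left out, 2 of 8 genes tested were called lower, Tyrp1 and Mlana, against 1.07% of 12313 genes. With shared reads counted once and MIT-Empty 4 left out, Tyrp1 alone was called of 6 tested, against 0.557% of 11484 genes (log2 fold change -2.47, adjusted p = 0.0166, edgeR), and Mlana was at -2.26 (adjusted p = 0.0805). With shared reads counted once and MIT-BATF 1 left out, 0 of 8 were called, with Tyrp1 at -5.74 (adjusted p = 0.0719) and Mlana at -3.93 (adjusted p = 0.0677). Of all 11280 genes in that fit, 0.683% were called lower. At an unadjusted p under 0.05 it held 7 of the 8, against 11.7% of all genes. As deposited, DESeq2 called 8 of 8 lower (4.07% of genes), the fit with no filter 10 of 10 (1.99%), and protein-coding transcripts alone 5 of 8 (1.77%). With shared reads counted once, no filter gave 8 of 10 (1.09%) and protein-coding transcripts gave 1 of 5 (0.551%). The fold changes kept their direction in each of these fits, and the number called depended on single libraries.

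On the per-length scale of the deposited TPM values, levels can be compared between genes. In MIT-BATF the order was Mlana (3.22 ± 2.73 TPM), Dct (2.02 ± 0.89), Tyrp1 (0.67 ± 0.28), Trpm1 (0.65 ± 0.45), Pmel (0.46 ± 0.28), Tyr (0.21 ± 0.12), Slc45a2 (0.069 ± 0.079), Mitf (0.041 ± 0.043) and Ppargc1a (0.026 ± 0.023), each a mean with its SD over 5 libraries, with Gpr143 at 0. In MIT-Empty it was Mlana (81.0 ± 106 TPM), Dct (45.6 ± 65.6), Tyrp1 (40.9 ± 61.6), Pmel (6.0 ± 8.04), Slc45a2 (2.07 ± 3.08), Tyr (2.04 ± 2.72), Trpm1 (1.85 ± 1.25), Ppargc1a (1.05 ± 1.48), Gpr143 (0.31 ± 0.50) and Mitf (0.29 ± 0.37). In MIT-BATF, Dct and Tyrp1 differed by more than either SD, as did Tyr and Slc45a2 and also Ppargc1a and Gpr143, the last at 0, and the other neighbours did not. In MIT-Empty no neighbours did, the spread being wide, with MIT-Empty 4 the highest library for each gene. Within single libraries of MIT-Empty the first 3 kept their places, with Mlana above Dct and Dct above Tyrp1 in 5 of 5. These Dct levels include Dct-204, which took 47.2% to 97.3% of Dct counts in MIT-BATF, against 1.42% to 30.5% in MIT-Empty. The place of Dct against Tyrp1 was not computed in TPM without that transcript. No TPM value was computed with shared reads counted once. Mlana made up 38.9% to 52.7% of the summed TPM of the 10 genes in MIT-BATF 2 to 5 and 3.08% in MIT-BATF 1, against 43.1% to 67.1% in MIT-Empty. Pmel, the antigen gene, made up 2.63% to 12% in MIT-BATF, against 2.67% to 5.75% in MIT-Empty.

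The ratios between genes within a library were compared on counts with shared reads counted once, each with a Wilson 95% interval that covers counting error only. Dct without Dct-204 stood to Tyrp1 as 0.87, 1.45, 1.36 and 1.75 to 1 in MIT-BATF 2 to 5. In MIT-Empty the ratios were 1.03, 0.86, 1.02, 0.75 and 0.82. MIT-BATF 1 was far from all of these, with 2 Dct counts against 51 Tyrp1 counts, a ratio of 0.039 (interval 0.011 to 0.15). Its Mlana ratio was also low, 1 count against 51 or 0.020 (0.0034 to 0.11), where the other MIT-BATF libraries were between 0.68 and 1.55. This was also the library in which mitochondrial genes took 33.2% of counts, whose part in the ratios was not tested. In MIT-Empty the Mlana ratio was 0.45, 1.22, 0.71, 0.28 and 1.19, with an interval of 0.26 to 0.29 in MIT-Empty 4 and of 0.36 to 0.55 in MIT-Empty 1, while those of MIT-Empty 2, 3 and 5 began at 0.58 or higher. Tyrp1 took 6.36% to 25.1% of the summed counts in MIT-BATF, against 42.6% in MIT-Empty 4 (interval 41.7% to 43.5%) and 19.1% to 29.7% in the other MIT-Empty libraries. That sum still includes Dct-204, which as deposited took 47.2% to 97.3% of Dct counts in MIT-BATF, against 1.42% to 30.5% in MIT-Empty. Dct-204 thus lowers the Tyrp1 share more in MIT-BATF than in MIT-Empty 4, and the share without it was not computed. The spread that amplification and sampling of mice add to these ratios is not in the intervals, so no test of a difference between libraries was made.

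**Figure D4:**
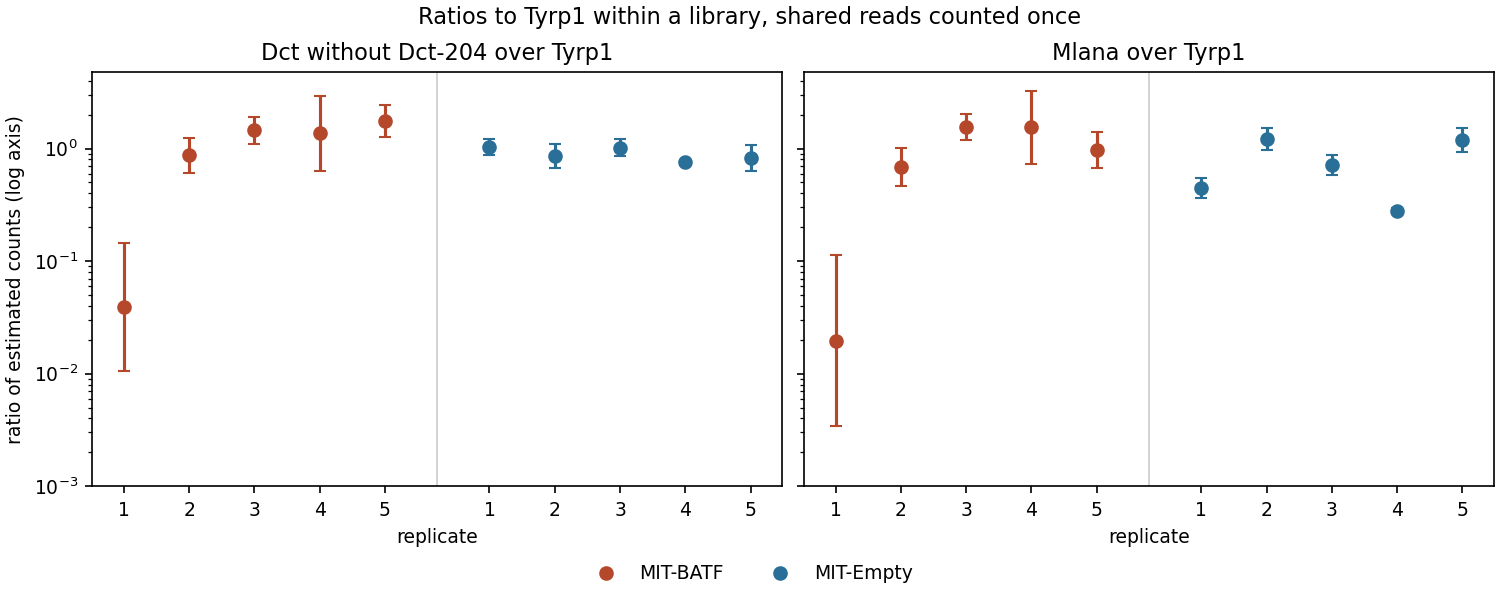
Estimated counts of Dct without Dct-204 (left panel) and of Mlana (right panel) over those of Tyrp1 in the same library, on a log axis, shared reads counted once, with Wilson 95% intervals for counting error. MIT-BATF is on the left of each panel. MIT-BATF 1 lies at 0.039 and 0.020, below the other 9 libraries in both panels.

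Of 20 other melanosome and pigment genes, 12 passed the filter, of which 4 were lower (2.43% of all genes) and 1 higher (2.16%) in MIT-BATF, with a median log2 fold change of -0.80. The 4 were Ptgds, a prostaglandin synthase of melanocytes (1.15 ± 1.00 against 29.4 ± 37.7 CPM, log2 fold change of -4.48, adjusted p = 0.00667, edgeR), the melanosome glycoprotein gene Gpnmb (-3.24, adjusted p = 0.0412), the melanosome trafficking GTPase gene Rab38 (-2.89, adjusted p = 0.0341) and Syngr1 (-2.26, adjusted p = 0.0357). None of these 4 passed with shared reads counted once (adjusted p between 0.0642 and 0.233). Sytl2, whose product binds Rab27a on melanosomes and lytic granules, went the other way, with 41.3, 26.9, 29.1, 33.3 and 19.3 CPM in MIT-BATF, against 9.80, 13.8, 15.4, 13.1 and 13.3 CPM in MIT-Empty. The groups did not overlap, and the log2 fold change was 1.19 ± 0.20 (adjusted p = 0.00346, and 0.0222 with shared reads counted once, where 0.575% of all genes were higher, edgeR). Myo5a, the myosin that carries melanosomes along actin, averaged 12.5 ± 2.91 CPM in MIT-BATF, against 21.1 ± 7.51 CPM in MIT-Empty, a difference that did not pass (log2 fold change -0.75, adjusted p = 0.0879, edgeR).

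Among 12 transcription factors and receptors of melanocytes, 10 passed the filter, with 2 higher and 1 lower in MIT-BATF, against 2.16% and 2.43% of all genes. Lef1, a Wnt pathway factor that naive and memory T cells also use, averaged 24.9 ± 3.46 CPM in MIT-BATF, against 12.3 ± 2.42 CPM in MIT-Empty, a log2 fold change of 1.00 ± 0.17 (adjusted p = 0.00378, edgeR). Kit, the stem cell factor receptor, averaged 11.6 ± 5.66 CPM in MIT-BATF, against 3.63 ± 1.55 CPM in MIT-Empty, a log2 fold change of 1.64 ± 0.38 (adjusted p = 0.0241). Met, the hepatocyte growth factor receptor, was lower, with 0.098 to 0.49 CPM in MIT-BATF, against 2.82, 23.8, 1.35, 75.0 and 0.083 CPM in MIT-Empty, a log2 fold change of -5.87 ± 1.24 (adjusted p = 0.0144). With shared reads counted once, 0 of the 8 genes of this list that were tested passed by edgeR, with 3 at an unadjusted p under 0.05, Lef1 at an adjusted p of 0.108 and Kit at 0.119. Sox10, named after its values were seen, was at 0 to 0.29 CPM in MIT-BATF, against 0, 2.13, 0.25, 6.79 and 0.25 CPM in MIT-Empty. The groups overlapped, with MIT-Empty 1, 3 and 5 within the MIT-BATF range. Of 6 PGC-1 coactivators and partners other than Ppargc1a, 5 were tested and 0 passed by edgeR or DESeq2, with 0 at an unadjusted p under 0.05. The most abundant were Tfam (26.3 ± 4.66 CPM in MIT-BATF, against 27.5 ± 3.61 CPM in MIT-Empty) and Gabpa (25.4 ± 6.75 and 22.5 ± 4.68 CPM).

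The genes whose log2(CPM + 1) over the 10 libraries was most like the sum of the 10 were sought among 10764 genes with a mean count of at least 20. They were Gsta1 (Pearson r of 0.997), Car6 (0.992), Dmxl2 (0.985), Fbln5 (0.985), Syt4 (0.985), Ctnnd1 (0.981), Tm4sf1 (0.981), Sirt5 (0.980), Timp1 (0.979) and Met (0.979). These values describe libraries of which 4 lie within others. Gsta1 was at 0.44, 0.69, 1.02, 0.69 and 1.51 CPM in MIT-BATF, against 5.51, 14.5, 2.21, 41.7 and 2.16 CPM in MIT-Empty. Tm4sf1 was at 0.37 CPM or less in MIT-BATF, against 6.61, 52.1, 1.19, 163 and 0 CPM in MIT-Empty, so its groups overlapped. Sirt5 differed from the others in its level, at 42.0 to 59.7 CPM in MIT-BATF, against 70.9 to 357 CPM in MIT-Empty, with no overlap (log2 fold change -1.54, adjusted p = 0.0277, and 0.143 with shared reads counted once, edgeR). Of all genes tested as deposited, 3.17% had every MIT-BATF library below every MIT-Empty library. The 10 genes were chosen for likeness to a sum that itself separates the groups. A difference between groups is thus built into the choice and is not support.

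Markers of other cell types of the tumor moved in part with these genes. Of 12 macrophage and monocyte markers, 3 of 10 tested were lower in MIT-BATF, against 2.43% of all genes, named after their values were seen: Lyz2, Apoe and C1qc (log2 fold changes of -1.66, -3.35 and -2.06, adjusted p between 0.00710 and 0.0342, edgeR). Of those tested and not called, Fcgr1 went the other way (log2 fold change 0.31), and the rest lay between -2.51 (Cd14) and -0.52 (C1qa). Apoe alone, of 9 tested, passed with shared reads counted once, against 0.683% of all genes. Their list summed to between 24.8 and 79.0 CPM in MIT-BATF, against between 42.2 and 281 CPM in MIT-Empty, so the ranges overlapped. Of 8 fibroblast markers, 2 passed the filter, Sparc and Dcn, both through the MIT-Empty libraries, so that a count of calls says nothing about the list. Sparc was at 0.46 CPM or less in MIT-BATF, against 0.91 to 43.6 CPM in MIT-Empty, and Dcn at 0.44 CPM or less in MIT-BATF, against 1.58 to 11.5 CPM in MIT-Empty. Pdgfra, not tested, alone of the list had a higher mean in MIT-BATF (0.52 ± 0.63 against 0.26 ± 0.09 CPM, SD). The list summed to between 0.69 and 2.16 CPM in MIT-BATF, against between 3.98 and 145 CPM in MIT-Empty, with no overlap and MIT-Empty 4 highest, where Col3a1 held 65.6 CPM. Counting shared reads once, MIT-Empty 2 dropped to 2.83 CPM for this list, as it had for the melanocyte genes. Endothelial, keratinocyte, Schwann cell and erythroid lists had 0 of 8 genes called by edgeR (2 at an unadjusted p under 0.05, and 1 Schwann cell gene called by DESeq2), and the ranges of their sums overlapped between groups. Their most abundant genes were Pecam1, Krt10, Mbp and Hba-a2, and Hba-a2 was highest in MIT-BATF 2 at 238 CPM. Pecam1, Krt10 and Mbp made up most of the sums of their lists, so these overlaps say little about the other genes. S100b, named like Cdh19 after its values were seen, was at 0.88 CPM or less in MIT-BATF, against 0.98 to 9.70 CPM in MIT-Empty. It did not pass (log2 fold change -2.75, adjusted p = 0.0661, edgeR). Cdh19 was at most 0.18 CPM in MIT-BATF, against 8.08 CPM in MIT-Empty 4 and 0 in MIT-Empty 3 and 5. Mbp alone of the Schwann cell list had a higher mean in MIT-BATF. No marker on these lists was at 0 in all 10 libraries. The part of these cells in the melanocyte result was not tested.

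**Figure D5:**
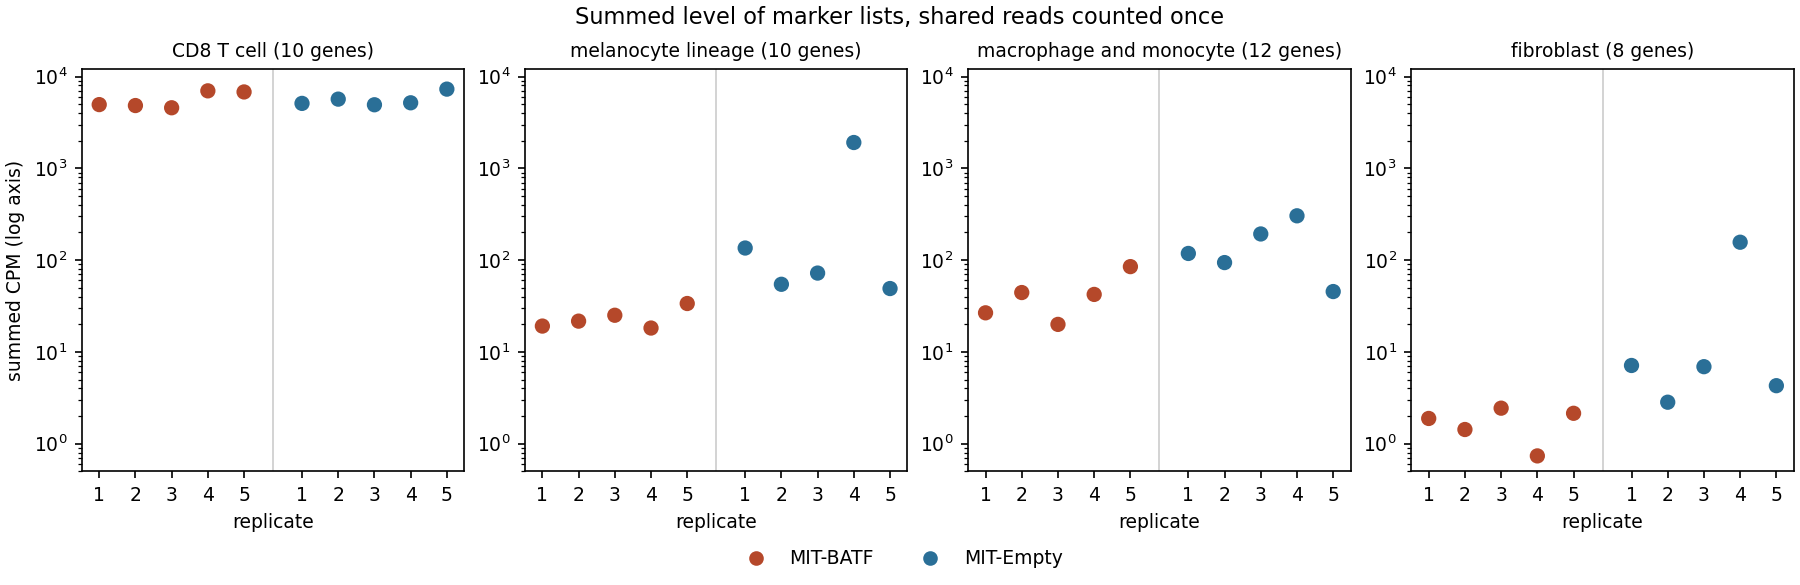
Summed CPM of 4 marker lists per library on a log axis, shared reads counted once, MIT-BATF on the left of each panel. The CD8 T cell list lies between 4567 and 7290 CPM in all 10 libraries. The melanocyte and fibroblast lists are higher in each MIT-Empty library than in any MIT-BATF library, with MIT-Empty 4 at 1910 and 157 CPM, and the macrophage list overlaps.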

How the data were processed

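RNA was measured in 10 libraries of sorted tumor-infiltrating Pmel CD8+ T cells. The authors ran the nf-core/rnaseq pipeline on the mm10 genome and quantified expression with Salmon, its version being not given in the sources used here. Deposited estimated counts per transcript need not be whole numbers. The deposited TPM values are scaled to transcript length and library total and served for comparing levels between genes. Transcripts were joined to genes by GENCODE annotation of GRCm38, which left out 305 of 112092 with at most 0.089% of counts.

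Estimated counts were summed per gene, rounded and tested by edgeR 4.0.16 (quasi-likelihood, TMM, filterByExpr, condition only) in R 4.3.3, with Benjamini-Hochberg adjusted p-values across the genes that passed and a call at 0.05. CPM values use TMM-scaled library sizes. Containment meant that the smaller library was above the larger in less than 1% of those genes where it had 5 counts or more. DESeq2 1.42.0, RLE size factors, no filter, a block by replicate number, shared reads counted once, fits without the contained or containing libraries and leaving out each library were listed as alternatives, and fits without MIT-Empty 2 and 4, without MIT-BATF 1 or on coding transcripts were added after seeing the data. The test was tried first on simulated counts of 5 against 5 separate libraries, with the same spread set for every gene. That setting has no nested libraries and no library far above the rest, so the trial does not cover these features of the data. Tables and motif searches were made in Python 3.11.15.

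The members and lists were chosen with earlier results of these data known. Named genes are all 10 members, genes of 3 related lists past the threshold or among the 2 most abundant, the 10 most alike in pattern, and the most abundant of each other list. Replicates are separate mice per the labels. Sharing of reads was inferred from the counts alone. Reads shared between libraries would enter the deposited counts more than once, which would make p-values from them too small. Low counts limit Gpr143, Mitf and Slc45a2.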

Additional observations from a re-analysis of the deposited data

Results flagged for a closer look

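Of 48 groups of 5 libraries examined with Dixon's criterion, 15 had 1 library far from the other 4. For a single group chance gives about 1 in 20. Most groups hold the same genes in the same libraries, as deposited and with shared reads counted once, and most flags fell on MIT-Empty 4. The groups are thus not independent, and the 15 cannot be read as an excess over chance. MIT-Empty 4 was far above the other MIT-Empty libraries with shared reads counted once for Tyrp1 (814 CPM), Dct (622 CPM), Mlana (225 CPM), Tyr (81.4 CPM), Pmel (74.0 CPM), Slc45a2 (44.7 CPM), Ppargc1a (21.1 CPM), Mitf (9.60 CPM), Gpr143 (3.32 CPM) and the sum of the 10 genes (1910 CPM). As deposited, Trpm1 was far above the rest in MIT-Empty 4 at 14.5 CPM. In MIT-BATF, Tyr stood out in MIT-BATF 5 at 4.74 CPM as deposited, Slc45a2 in MIT-BATF 5 at 1.22 CPM and Ppargc1a in MIT-BATF 4 at 0.84 CPM with shared reads counted once. Mitochondrial genes took 33.2% of counts in MIT-BATF 1, the highest share in its group.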

How the results depend on the processing

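All 10 genes were lower in the libraries labelled MIT-BATF in every fit that tested them, so no direction changed. How many of them passed was less firm. The 7 called as deposited became 2 with shared reads counted once, 2 with a replicate block (Mlana and Ppargc1a, with Tyrp1 at a log2 fold change of -4.15 and an adjusted p of 0.0608), 0 without replicates 4 and 5 of both groups (7 of 8 with an unadjusted p under 0.05, as had 11.4% of all genes), 0 without replicates 2 and 3 of both groups (7 of 7 and 8.40% of all genes), 2 without MIT-Empty 2 and 4, 1 with shared reads counted once and MIT-Empty 4 left out, 0 with them counted once and MIT-BATF 1 left out (7 of 8 and 11.7%), and 1 with protein-coding transcripts and shared reads counted once. Leaving out one library each time gave 5 to 8. Over all genes, 540 called became 916 by DESeq2, 903 with no filter, 140 with shared reads counted once, 96 without replicates 4 and 5, 15 without replicates 2 and 3, 259 without MIT-Empty 2 and 4, 116 and 138 with shared reads counted once and MIT-Empty 4 or MIT-BATF 1 left out, and 101 with protein-coding transcripts and shared reads counted once. One library left out gave 287 to 772, the lowest without MIT-Empty 2, and 321 without MIT-BATF 2. The replicate block gave 474 genes. Deviations of samples sharing a number had correlations between -0.059 and 0.28, and those of samples with different numbers between -0.21 and 0.21. The highest was that of replicate 3 in both groups, and some of these libraries lie within others. Whether the numbers pair the samples was thus not settled. Why the counts of calls moved was not tested. The fits that leave libraries out also hold fewer of them, and the part of that smaller number was not separated. The log2 ratio of the mean summed levels was -4.54 in CPM, -4.62 in TPM and -4.24 with shared reads counted once. All of these rest on MIT-Empty means that MIT-Empty 4 raised. With shared reads counted once it was at 1910 CPM, against 49.0 to 135.4 CPM in the other MIT-Empty libraries. The medians of these sums were 21.6 CPM in MIT-BATF, against 72.2 CPM in MIT-Empty. Low depth limits Gpr143, with at most 19 counts in a library.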
